A study of Mus musculus with 5 samples.

Results

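Mef2a, Mef2c and Mef2d of the myocyte enhancer factor 2 family, Srf, and the myocardin-related cofactors Mkl1 and Mkl2 (current symbols Mrtfa and Mrtfb) were followed in cells sorted from dystrophic mouse muscle. These 6 genes were chosen by name, as every non-control probe that the array design names for one of them: 12 probes of 55681, or 6 of 36409 genes and unnamed features. RNA was measured on 5 single-colour arrays of sorted cells. Sca1+ interstitial cells (CD34+, α7-integrin+, Sca1+) from mice injected intraperitoneally with the histone deacetylase inhibitor trichostatin A (TSA, 0.6 mg per kg, 45 days) were on 2 arrays. Muscle stem cells (MuSC, the CD34+, α7-integrin+, Sca1- satellite cells) from vehicle mice were on 1 array, and Sca1+ cells from vehicle mice on 2. All 3 groups came from C57BL/6 mice of the DMD/MDX genotype, the dystrophin mutant that models Duchenne muscular dystrophy, so every comparison was made within dystrophic muscle. The labels give no age or sex, and whether the replicates are separate animals is not stated. The p-values therefore reflect the spread between these arrays alone, part or all of which may be technical.

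MEF2 proteins bind A/T-rich sites in the control regions of muscle genes and work with the MyoD family of myogenic factors. Class IIa histone deacetylases bind MEF2 and hold its target genes silent until calcium or kinase signals remove them. SRF binds the CArG box, and its partner decides the targets: myocardin and the myocardin-related factors, which are released from actin monomers when actin polymerises, drive contractile and cytoskeletal genes, while the ternary complex factors of the ETS family drive immediate early genes.

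Sequences are shown for 3 purposes: the probe on which every Mef2c value rests, the promoter of Srf with its own CArG boxes, and the sites found in promoters of known SRF and MEF2 targets described further on. Capitals mark a CArG box or a MEF2 site. Promoter sequences are from RefSeq on GRCm38.p6 and are written along the strand of the gene. The Mef2c probe is written 5′ to 3′ as deposited.
Mef2c probe: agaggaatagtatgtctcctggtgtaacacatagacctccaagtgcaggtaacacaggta
Srf promoter, chr17:46556163-46556304, minus strand: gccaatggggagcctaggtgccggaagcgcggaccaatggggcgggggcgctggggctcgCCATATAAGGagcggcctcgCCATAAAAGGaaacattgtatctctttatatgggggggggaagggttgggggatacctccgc
Acta1 CArG box, chr8:123894819-123894868: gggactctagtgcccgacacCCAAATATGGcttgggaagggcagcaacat
Actc1 CArG box, chr2:114052893-114052942: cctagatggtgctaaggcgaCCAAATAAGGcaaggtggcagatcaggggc
Myl9 CArG box, chr2:156775283-156775332: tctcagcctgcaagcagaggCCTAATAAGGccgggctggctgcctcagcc
Vcl CArG box, chr14:20929151-20929200: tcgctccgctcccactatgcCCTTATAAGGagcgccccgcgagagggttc
Actg1 CArG box, chr11:120348556-120348605: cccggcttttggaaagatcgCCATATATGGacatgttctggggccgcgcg
Fhl2 CArG box, chr1:43163963-43164012: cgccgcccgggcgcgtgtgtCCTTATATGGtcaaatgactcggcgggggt
Srpk3 MEF2 site, chrX:73774318-73774367: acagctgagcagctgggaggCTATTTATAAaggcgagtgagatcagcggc
Pgam2 MEF2 site, chr11:5803847-5803896: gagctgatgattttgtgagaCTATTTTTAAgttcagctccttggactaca
Jun MEF2 site, chr4:95052226-95052275: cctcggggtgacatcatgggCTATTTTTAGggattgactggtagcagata

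Both motifs were searched on both strands of windows that run from 250 bases before to 50 after the start of each gene, and each motif is its own reverse complement. The CArG box occurred in 1.63% and the MEF2 site in 3.19% of the 32851 windows of that length. Of the 6 genes, the Srf window held a CArG box, in 2 copies 52 and 72 bases before the start, and 1 window each of Mef2a and Mkl2 held a MEF2 site. A match is a description of the sequence and not a measured binding site.

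Levels are log2 processed signals relative to the 75th percentile of the same array, and are compared between groups for 1 probe at a time, not between probes. On each array 58.5% to 66.9% of spots were well above background, with 0 saturated. The 75th percentile signal itself was 326 and 452 on the TSA arrays, 240 on the MuSC array, and 235 and 165 on the vehicle arrays. Replicate 1 of each Sca1+ group and the MuSC array lay on slide 1, and replicate 2 on slide 2. All 6 genes had at least 1 probe well above background on all 5 arrays. Of the 12 probes, 11 passed that filter in at least 1 group, and the remaining Mkl2 probe was well above background only on TSA replicate 2. The expression of the sorting antigen gene Ly6a, which encodes Sca1, was 5.89 and 5.71 in TSA Sca1+ cells, 1.46 in MuSC, and 6.46 and 6.59 in vehicle Sca1+ cells. Pax7, the satellite cell transcription factor, stood at -0.99 and -1.16 in TSA Sca1+ cells, 3.48 in MuSC, and -3.77 and -4.51 in vehicle Sca1+ cells, where it was well above background on 1 of 2 arrays.

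The first comparison set Sca1+ cells from TSA mice against those from vehicle mice. None of the 6 passed the test (limma, Benjamini-Hochberg adjusted p under 0.05 over 26091 genes), where 2.98% of all genes did. Their median log2 difference was 0.43, against -0.13 for all genes, and 3 of the 6, Mef2c, Srf and Mef2d, had an unadjusted p under 0.05, as did 6048 of all 26091 genes. The second comparison asked how MuSC differed from Sca1+ cells, both with vehicle. Mef2c, Srf and Mef2d were higher in MuSC, where 10.5% of all genes were called higher, and the median of the 6 genes was 0.78, against -0.04. Both comparisons use the same vehicle arrays, so their values for a gene are given side by side and their likeness is not independent. In RNA from sorted populations, a change in the share of cells that express a gene and a change in RNA per cell cannot be told apart.

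Mef2c encodes the family member with a well-known part in muscle development and its level is read from a single probe. That probe, shown above, covers 60 transcript bases that span chr13:83772788-83775025 in mm9, so it crosses an exon junction. Mef2c stood at -1.30 and -1.38 in TSA Sca1+ cells, -0.29 in MuSC, and -2.18 and -2.00 in vehicle Sca1+ cells. The 3 groups did not overlap, with MuSC highest and vehicle Sca1+ cells lowest. The share of all probes whose groups are as separate was not counted, here or for the other probes described. Such an order of 5 arrays is therefore a description and not a result of a test. The TSA minus vehicle difference was 0.75 ± 0.16 on the log2 scale, or 1.68-fold (SE, n = 2 arrays each, 95% interval 0.32 to 1.18, adjusted p = 0.105), and it was 0.88 on slide 1 and 0.62 on slide 2. MuSC exceeded vehicle Sca1+ cells by 1.80 ± 0.19, or 3.48-fold (adjusted p = 0.0077, 1 MuSC array assumed to vary like the others). TSA Sca1+ cells lay below MuSC by a log2 difference of -1.05 ± 0.19 (adjusted p = 0.0417), where 4.83% of all genes were called lower. That last call was lost with no filter on dim probes (adjusted p = 0.112), with the replicate number as a block (0.0559), with only those 2 groups in the fit (0.0684) and over all probes (0.0504). Mef2c had a processed signal of only 132 and 174 with TSA, 196 in MuSC, and 51.8 and 41.2 with vehicle. Normexp background correction, an alternative, adds an offset of 50 to every signal. Such an offset by itself shrinks the log2 differences of dim probes, here and for the genes below. With it the Mef2c differences were 0.15 for TSA and 1.07 for MuSC against vehicle.

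Mef2d, a broadly expressed member of the family, followed the same order on its brighter probe (chr3:87972971-87973030). Its level was -1.23 and -1.32 in TSA Sca1+ cells, -0.62 in MuSC, and -1.67 and -1.95 in vehicle Sca1+ cells, and the groups did not overlap. MuSC exceeded vehicle Sca1+ cells by 1.19 ± 0.21, or 2.28-fold (adjusted p = 0.0255), and TSA exceeded vehicle by 0.54 ± 0.17 (95% interval 0.07 to 1.01, adjusted p = 0.186), with 0.45 on slide 1 and 0.63 on slide 2. The MuSC call was lost with no filter on dim probes (adjusted p = 0.0700) and with only the compared groups in the fit (0.0647). With normexp background correction the differences of Mef2d were 0.23 for TSA and 0.78 for MuSC against vehicle. The second probe (chr3:87972214-87972560) read -1.55 and -2.04 with TSA, -0.91 in MuSC, and -1.95 and -1.96 with vehicle. On that probe the MuSC array again lay above the others, but the TSA and vehicle arrays overlapped. Its differences were 1.05 ± 0.27 for MuSC (adjusted p = 0.0708 over all probes) and 0.16 ± 0.22 for TSA (adjusted p = 0.692), so the probes differ on the size of the TSA difference.

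Mef2a was the family member whose probes disagreed most. The brighter probe (chr7:74379575-74379634), which stands for the gene in the test, read 1.47 and 1.53 in TSA Sca1+ cells, 2.05 in MuSC, and 1.49 and 1.86 in vehicle Sca1+ cells. TSA and vehicle overlapped there, with a difference of -0.17 ± 0.19 (adjusted p = 0.603), and MuSC lay 0.38 ± 0.23 above vehicle (adjusted p = 0.323). The second probe (chr7:74378751-74378810), nearer the 3′ end of the transcript, read -1.32 and -1.08 with TSA, -0.03 in MuSC, and -1.55 and -1.66 with vehicle, and its groups did not overlap. In the fit over all probes it was higher in MuSC than in vehicle Sca1+ cells by 1.57 ± 0.21, or 2.97-fold (adjusted p = 0.0149), and lower in TSA Sca1+ cells than in MuSC by a difference of -1.17 ± 0.21 (adjusted p = 0.0447), where 4.09% of all probes were called lower. Its TSA minus vehicle difference was 0.40 ± 0.18 (1.32-fold, adjusted p = 0.276), which did not pass. Taking the median of both probes, Mef2a passed in MuSC with 0.97 (adjusted p = 0.0325). The brighter probe holds 16 TG dinucleotides in 60 bases, as many as only 0.101% of all probes hold, whereas the second holds 1 and the other probes of the 6 genes hold 2 to 9. The part of this repeat in the disagreement was not tested.

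**Figure D1:**
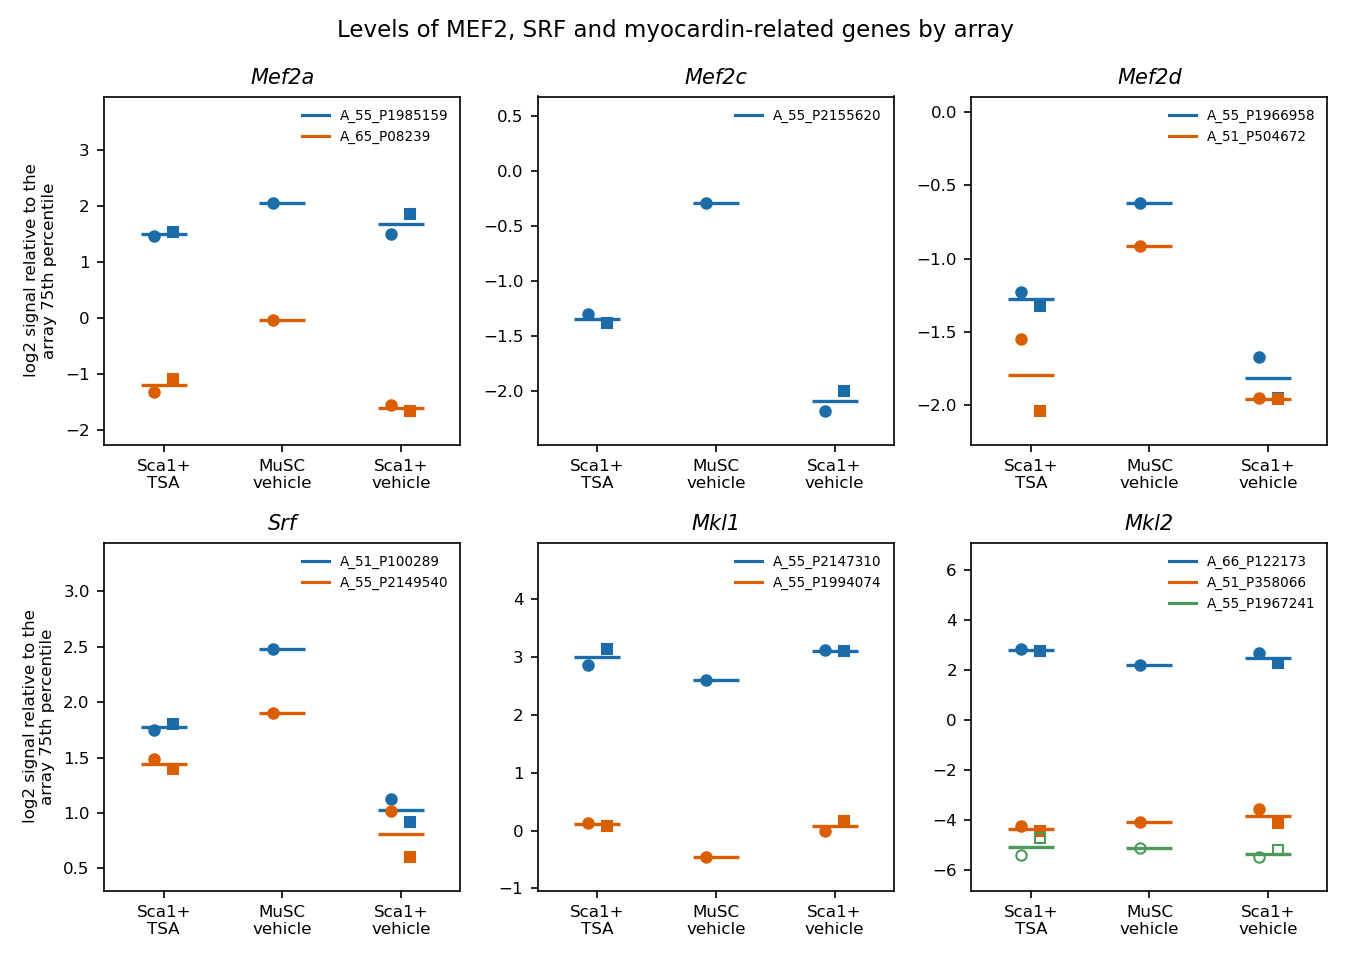
Log2 processed signal relative to the 75th percentile of the array (vertical axis, own scale in each panel) for every probe of the 6 genes, with TSA Sca1+ cells, vehicle MuSC and vehicle Sca1+ cells from left to right. Circles are replicate 1 (slide 1), squares replicate 2 (slide 2), short lines the group mean, colours the probes, and open symbols a probe not well above background on all 5 arrays. Mef2c and both Srf probes show 3 separate groups with MuSC on top, while Mkl1 and the brightest Mkl2 probe have MuSC at the bottom.

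Srf itself, the DNA-binding partner of the myocardin family, was ordered alike on its probes. The brighter probe read 1.75 and 1.80 in TSA Sca1+ cells, 2.48 in MuSC, and 1.13 and 0.92 in vehicle Sca1+ cells. The second (chr17:46685306-46685365) read 1.49 and 1.40 with TSA, 1.90 in MuSC, and 1.02 and 0.60 with vehicle. On each probe every TSA value lay above both vehicle values and below the MuSC value. The brighter probe differed by 0.75 ± 0.16, or 1.68-fold, between TSA and vehicle (95% interval 0.31 to 1.18, adjusted p = 0.108), with 0.62 on slide 1 and 0.87 on slide 2, and this did not pass the test. It did pass with normexp background correction (0.72, adjusted p = 0.0248) and with an intensity trend in the prior variance (adjusted p = 0.0322). MuSC exceeded vehicle Sca1+ cells by 1.46 ± 0.20, or 2.74-fold (adjusted p = 0.0127), on this probe and by 1.09 ± 0.26 on the second (adjusted p = 0.0559 over all probes). TSA Sca1+ cells differed from MuSC by -0.71 ± 0.20 (adjusted p = 0.0997), so these neighbours in the order were not separated by the test. The array design lists only 8 bases of genomic position for the brighter probe (chr17:46683788-46683795 in mm9), and the other positions of its 60 bases are not given there.

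The calls of Srf and Mef2d in MuSC rest on few arrays. Without vehicle replicate 2, or without either TSA array, Srf and Mef2d lost their calls in MuSC and Mef2c kept its call. Those fits have 1 residual degree of freedom in place of 2, and fewer of all genes passed in them. With 1 Sca1+ array left out at a time, the MuSC minus vehicle difference was 1.71 to 1.89 for Mef2c. For Srf it was 1.36 to 1.56 and for Mef2d 1.05 to 1.33. Without vehicle replicate 1 all 3 passed. No call of a TSA and MuSC difference among the 6 genes was left when any Sca1+ array was left out. Fewer of all genes passed in each of those fits too, so the loss is not particular to Mef2c. The Mef2c difference between TSA Sca1+ cells and MuSC was -1.09 to -1.01 in them.

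The cofactors Mkl1 and Mkl2, which carry the actin signal to SRF, passed the test in none of the comparisons. The brighter Mkl1 probe (chr15:80842711-80842770) read 2.86 and 3.14 in TSA Sca1+ cells, 2.60 in MuSC, and 3.12 and 3.10 in vehicle Sca1+ cells. The second (chr15:80843080-80843139) read 0.14 and 0.08 with TSA, -0.46 in MuSC, and -0.01 and 0.17 with vehicle. TSA and vehicle overlapped on both Mkl1 probes and MuSC was lowest on both. The brighter probe differed by -0.11 ± 0.17 between TSA and vehicle (95% interval -0.57 to 0.36, adjusted p = 0.718) and by -0.52 ± 0.21 between MuSC and vehicle Sca1+ cells (adjusted p = 0.170), and the second by -0.54 ± 0.20 between MuSC and vehicle (adjusted p = 0.147).

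Mkl2 had 3 probes. The brightest (chr16:13417529-13417588) read 2.85 and 2.76 in TSA Sca1+ cells, 2.22 in MuSC, and 2.69 and 2.29 in vehicle Sca1+ cells, so both TSA values lay above both vehicle values and MuSC was lowest. Its differences were 0.32 ± 0.20 for TSA minus vehicle (95% interval -0.22 to 0.86, adjusted p = 0.385) and -0.26 ± 0.25 for MuSC minus vehicle (adjusted p = 0.499). The second probe, with a signal of at most 20.9 on any array, read -4.22 and -4.44 with TSA, -4.06 in MuSC, and -3.54 and -4.10 with vehicle. It ran the other way between TSA and vehicle, with a difference of -0.51 ± 0.26 (adjusted p = 0.321), so the data give Mkl2 no settled direction. The intervals still allow log2 changes as large as 0.86 for Mkl2 and -0.57 for Mkl1 between TSA and vehicle. A p above the threshold does not show that the levels were equal.

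**Figure D2:**
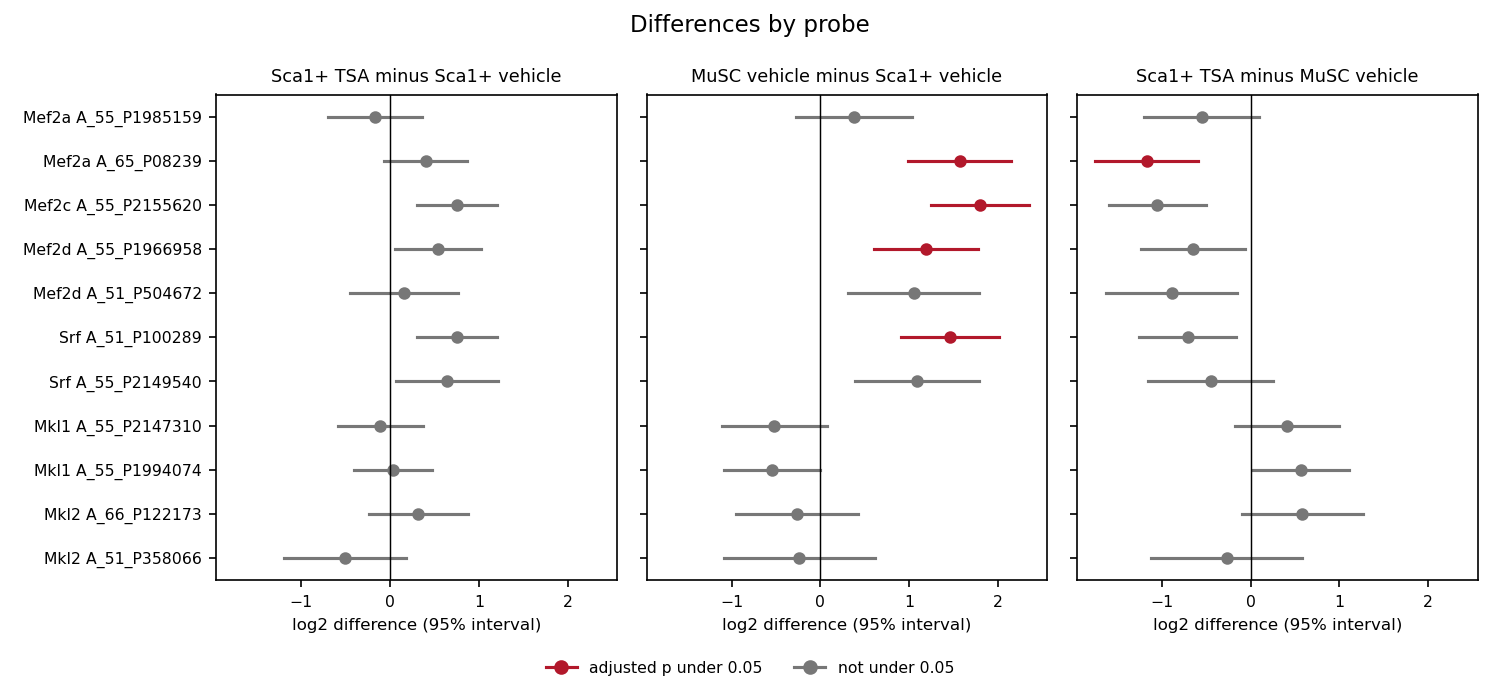
Log2 differences (horizontal axis) with 95% intervals for the 11 tested probes of the 6 genes in the fit over all probes, for TSA Sca1+ against vehicle Sca1+ cells (left), MuSC against vehicle Sca1+ cells (middle) and TSA Sca1+ cells against MuSC (right). Red marks an adjusted p under 0.05: no probe on the left (2.26% of all probes passed there), 4 in the middle (9.37% of all probes were called higher there) and the second Mef2a probe on the right, while the Mef2c probe on the right had an adjusted p of 0.0504 over all probes.

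The profiles of the 6 genes over the 5 arrays, each centred on its own mean, fell closest for Mef2d and Srf, with a root mean square distance of 0.124 on the log2 scale, and for Mef2c and Srf, with 0.188. Mkl1 and Mkl2 lay 0.256 apart, and Mef2c and Mkl1 were farthest at 0.856. These distances describe 5 arrays in 3 groups and carry no test. Among 13549 other genes with a symbol and a signal well above background on all arrays, the nearest to Srf were Gmpr (0.032), Camk2b (0.032) and Cd200 (0.035). Those nearest to Mef2c were Palld (0.063), Cdc25c (0.069) and Pnpla2 (0.072), and to Mef2d Hhip (0.021), Fbl (0.045) and Cd83 (0.047). Mef2a lay nearest to Rwdd3, Rpl13a and Lctl (0.043 to 0.047), Mkl1 to Vhl, Timm10b and Tmed10 (0.017 to 0.030), and Mkl2 to Slc26a6, Prr5l and Prrg2 (0.039 to 0.045). Each of the 6 genes had neighbours closer than any other of the 6, but with 13549 candidates this says little about the 6.

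The genes that act on MEF2 were examined next. Of 21 regulators and partners of MEF2, 0 passed the test between TSA and vehicle (limma), where 2.98% of all genes did. Of the 21, 6 had an unadjusted p under 0.05, as did 6048 of all 26091 genes. The median difference of the 21 was 0.02, against -0.13 for all genes. In MuSC, 4 were higher and 2 lower than in vehicle Sca1+ cells, where 10.5% of all genes were called higher and 11.7% lower. Mamstr, a coactivator of MEF2 in muscle, stood at -1.52 and -1.49 in TSA Sca1+ cells, 1.10 in MuSC, and -2.14 and -2.12 in vehicle Sca1+ cells. Its MuSC minus vehicle difference was 3.23 ± 0.18 (adjusted p = 0.0018) and its TSA minus vehicle difference 0.63 ± 0.14 (adjusted p = 0.118). Mamstr was thus far above both Sca1+ groups in MuSC, and in TSA Sca1+ cells it was lower than in MuSC by a difference of -2.60 ± 0.18 (adjusted p = 0.0055). With normexp its MuSC minus vehicle difference was 2.14.

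The class IIa deacetylases, which repress MEF2, did not share a direction. Hdac7 was lower in MuSC than in vehicle Sca1+ cells by a difference of -1.65 ± 0.21 (adjusted p = 0.0115), with 3.16 and 3.44 in TSA Sca1+ cells, 1.70 in MuSC, and 3.33 and 3.37 in vehicle Sca1+ cells. Hdac9 was higher in MuSC by 2.43 ± 0.29 (adjusted p = 0.0093), with -1.77 and -1.29 in TSA Sca1+ cells, -0.59 in MuSC, and -3.15 and -2.89 in vehicle Sca1+ cells. With normexp that Hdac9 difference was 1.07. Hdac9 also lay 1.49 ± 0.23 above vehicle with TSA, which did not pass (adjusted p = 0.065), and Hdac4 and Hdac5 passed in none of the comparisons. Camk2g, a kinase of the calcium and calmodulin pathway, was higher in MuSC by 2.11 ± 0.22 (adjusted p = 0.0069), and Sik1, a kinase that phosphorylates class II deacetylases, by 1.39 ± 0.21 (adjusted p = 0.0177). Prkd2, of the protein kinase D family, was lower in MuSC by a difference of -1.14 ± 0.19 (adjusted p = 0.0222). Prkd2 lost its call whichever Sca1+ array was left out (adjusted p of 0.0642 to 0.0841), Sik1 without vehicle replicate 1 or 2 or TSA replicate 1 (up to 0.0689), and Hdac7 without vehicle replicate 2 (0.0542).

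Of 15 partners of SRF and genes of actin signalling, 14 were tested, and Abra, a muscle activator of the pathway, did not reach well above background anywhere. With TSA, 1 was called higher and 0 lower, where 2.71% and 0.268% of all genes were called, and the list median was 0.03. The 1 was Myocd, the gene of myocardin itself, with -0.33 and -0.26 in TSA Sca1+ cells, 1.12 in MuSC, and -5.82 and -6.53 in vehicle Sca1+ cells. Both vehicle arrays left Myocd short of well above background, so its folds are bounds set by the lowest signal among probes well above background. Myocd was at least 18.7-fold higher with TSA and at least 49.97-fold higher in MuSC than in vehicle Sca1+ cells. The bounds themselves were not tested. The limma test used the raw differences of 5.88 for TSA (adjusted p = 0.0046) and 7.3 for MuSC (adjusted p = 0.0015), which rest on those dim vehicle values. Myocd entered the test only through the groups in which it is high, and a filter that asks for well above background on all arrays drops it. With normexp its differences were 1.78 for TSA and 2.92 for MuSC against vehicle, which are below those bounds. The normexp offset of 50 is far above the Myocd signals of 4.16 and 1.78 on the vehicle arrays. Those normexp values therefore do not bear on the bounds.

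In MuSC, 4 of the 14 were higher and 2 lower than in vehicle Sca1+ cells, against 10.5% and 11.7% of all genes. Beside Myocd these included the formin gene Diaph3, higher by 1.62 ± 0.26 (adjusted p = 0.0201), and Mical2, whose product oxidises actin, higher by 1.54 ± 0.29 (adjusted p = 0.0299). Limk1, a kinase of the actin-severing protein cofilin, was lower by a difference of -1.30 ± 0.18 (adjusted p = 0.0142), and Elk3, a ternary complex factor, by -0.87 ± 0.20 (adjusted p = 0.0475). Both lower calls were lost whichever Sca1+ array was left out, with an adjusted p of 0.0512 to 0.0603 for Limk1 and 0.101 to 0.123 for Elk3. Elk3 lost its call under 10 of 14 alternatives in all, Diaph3 lost it without either vehicle array (adjusted p up to 0.0804), and Mical2 without vehicle replicate 2 or either TSA array (up to 0.0844). The list median in MuSC was 0.05, against -0.04 for all genes.

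Of 22 cytoskeletal and contractile targets of SRF, 11 were called higher and 0 lower with TSA, against 2.71% and 0.268% of all genes. This list and the other gene lists were chosen with earlier results of these data known. Their shares are descriptions and not tests. The median difference of the 22 was 1.18. The 11 were Acta1, Acta2, Actc1, Actg2, Tagln, Cnn1, Lmod1, Myl9, Tpm1, Tpm2 and Flna, of which all but Flna encode actins, tropomyosins, a myosin light chain or other proteins abundant in muscle. Cnn1, encoding smooth muscle calponin, stood at 4.09 and 4.31 in TSA Sca1+ cells, 5.52 in MuSC, and -1.89 and -1.94 in vehicle Sca1+ cells. Actc1, the cardiac actin gene also used by developing skeletal muscle, stood at 1.46 and 1.61 with TSA, 5.13 in MuSC, and -3.47 and -3.32 with vehicle. Cnn1 was higher with TSA by 6.12 ± 0.16, Actc1 by 4.93 ± 0.16 and the smooth muscle actin gene Acta2 by 4.57 ± 0.14 (each with adjusted p = 0.0036). Lmod1, an actin-nucleating protein of smooth muscle, was not well above background with vehicle and was at least 14.0-fold higher with TSA and at least 35.3-fold higher in MuSC. A filter for well above background on all arrays drops Lmod1 and leaves 21 of the targets. Of these, 10 were higher with TSA and 12 in MuSC, against 559 and 2419 of all 22356 genes. With normexp the TSA minus vehicle difference was 2.95 for Actc1, 5.19 for Cnn1 and 1.41 for Lmod1, the last of these below its bound. The normexp offset is far above the vehicle signals of Lmod1 (2.42 and 1.81), so that value does not bear on the bound. The cytoplasmic actins Actb (-0.20 ± 0.18) and Actg1 (-0.12 ± 0.17), the non-muscle myosin gene Myh9 (0.31 ± 0.15), Zyx (0.17 ± 0.15) and Tpm4 (0.14 ± 0.16) did not pass. Tpm1 was called on its brightest probe (2.20 ± 0.15), while its other probes well above background on all arrays ranged from -0.66 to 3.11.

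In MuSC, 13 of the 22 cytoskeletal targets were higher and 3 lower than in vehicle Sca1+ cells, against 10.5% and 11.7% of all genes. The median difference of the 22 was 2.25. Actc1 was higher by 8.53 ± 0.20, Cnn1 by 7.43 ± 0.20 and Acta2 by 6.02 ± 0.18 (each with adjusted p = 0.0014). The 3 lower were Fhl2, encoding a LIM domain protein, at -2.07 ± 0.22, the integrin gene Itga5 at -1.94 ± 0.20, and Fhl1 at -0.80 ± 0.19 (adjusted p = 0.0494). The call of Fhl1 was lost whichever Sca1+ array was left out (adjusted p of 0.108 to 0.137) and with the replicate block, and the lower calls then numbered 2. With normexp the MuSC minus vehicle difference was 6.28 for Actc1 and 6.44 for Cnn1. Between TSA Sca1+ cells and MuSC, 10 were lower in TSA Sca1+ cells and 3, Fhl2, Itga5 and Ctgf, were higher. Of all genes, 4.83% were called lower and 7.96% higher there. By window, 8 of 20 windows of the cytoskeletal targets held a CArG box, against 1.63% of all windows. Of the immediate early targets with a window, 1 of 7 held it, Egr2, and of the MEF2 muscle targets 1 of 15, Myom1. Of the 18 cytoskeletal targets with a promoter window, 7 held a CArG box. Of these, Acta1, Actc1 and Myl9, whose sites are printed above, were called higher with TSA, whereas Vcl (0.72 ± 0.15, adjusted p = 0.102), Actg1, Fhl1 and Fhl2 were not. A window without the motif says only that these letters are absent from it.

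The immediate early targets of SRF and its ternary complex factors were called mostly in MuSC. Of 9 tested genes, 8 were higher in MuSC than in vehicle Sca1+ cells and 0 lower, against 10.5% and 11.7% of all genes. With TSA 1 was higher, against 2.71% of all genes. The medians of the 9 were 2.17 in MuSC and 0.36 with TSA. Egr3 was not well above background anywhere. Fos stood at 3.25 and 3.57 in TSA Sca1+ cells, 5.62 in MuSC, and 2.67 and 2.85 in vehicle Sca1+ cells. Its MuSC minus vehicle difference was 2.86 ± 0.23 (adjusted p = 0.0040) and its TSA minus vehicle difference 0.65 ± 0.19 (adjusted p = 0.164). The 1 gene called with TSA was Nr4a1, an orphan nuclear receptor gene, by 1.24 ± 0.15 (adjusted p = 0.0367), and it was higher in MuSC by 3.02 ± 0.18. Btg2 (3.11 ± 0.19) and Junb (2.24 ± 0.18) were higher in MuSC too. Of the 9, 8 were lower in TSA Sca1+ cells than in MuSC, where 4.83% of all genes were called lower.

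Of 18 muscle targets of MEF2, a list also chosen with earlier results known, 11 were called higher and 0 lower with TSA. Of all genes, 2.71% and 0.268% were. In MuSC 17 were higher, against 10.5% of all genes. The medians of the 18 were 2.24 with TSA and 3.79 in MuSC. A filter for well above background on all arrays left 13 of the 18, with 9 higher with TSA and 12 in MuSC. Under that filter 559 and 2419 of all 22356 genes were called higher. The targets it drops entered the test only through groups in which they are high. Myog, the myogenic factor of differentiation, stood at 1.12 and 1.53 in TSA Sca1+ cells, 4.80 in MuSC, and -3.58 and -3.54 in vehicle Sca1+ cells. It was higher with TSA by 4.89 ± 0.20 (adjusted p = 0.0042) and in MuSC by 8.36 ± 0.25 (adjusted p = 0.0014). With normexp these differences of Myog were 2.99 and 6.29. Des, encoding the intermediate filament protein desmin, stood at 1.44 and 1.62 in TSA Sca1+ cells, 4.09 in MuSC, and -2.27 and -2.20 in vehicle Sca1+ cells. It was higher with TSA by 3.77 ± 0.16 (adjusted p = 0.0042) and in MuSC by 6.33 ± 0.19 (adjusted p = 0.0014, with 5.12 under normexp). Slc2a4, the insulin-responsive glucose transporter gene, was higher with TSA by 3.92 ± 0.17 and in MuSC by 5.52 ± 0.21. Myom1, a protein of the sarcomere M-band, and the muscle kinase gene Srpk3 were not well above background with vehicle. They were at least 31.0-fold and 8.91-fold higher with TSA, and at least 84.6-fold and 28.2-fold higher in MuSC. With normexp the differences were below those bounds, at 2.39 for Myom1 and 0.96 for Srpk3 with TSA, and at 3.68 and 2.14 in MuSC. The normexp offset is far above the vehicle signals of both genes, so these values do not bear on the bounds. The 7 not called with TSA included Jun (0.13 ± 0.17), Smyd1 (-0.18 ± 0.21) and Pgam2 (1.23 ± 0.18, adjusted p = 0.0529). A MEF2 site lay in the windows of 3 of 15 genes of this list, Jun, Pgam2 and Srpk3, of which Srpk3 was called with TSA. By window these were 3 of 18, against 3.19% of all windows. Fhl2 and Hdac5 of the other gene lists also held a MEF2 site.

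The TSA counts of these lists depend on having both TSA arrays. Without either one, 0 of all genes passed between TSA and vehicle (limma). At an unadjusted p under 0.05 there were 4813 genes with TSA replicate 1 left out and 3294 with replicate 2 left out. Without vehicle replicate 1 the calls numbered 9 cytoskeletal targets and 6 muscle targets of MEF2, and without vehicle replicate 2 they numbered 9 and 5. Nr4a1 lost its call whichever Sca1+ array was left out. The differences moved little in these fits, at 1.18 to 1.30 for Nr4a1, 4.55 to 4.59 for Acta2 and 6.01 to 6.22 for Cnn1.

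**Figure D3:**
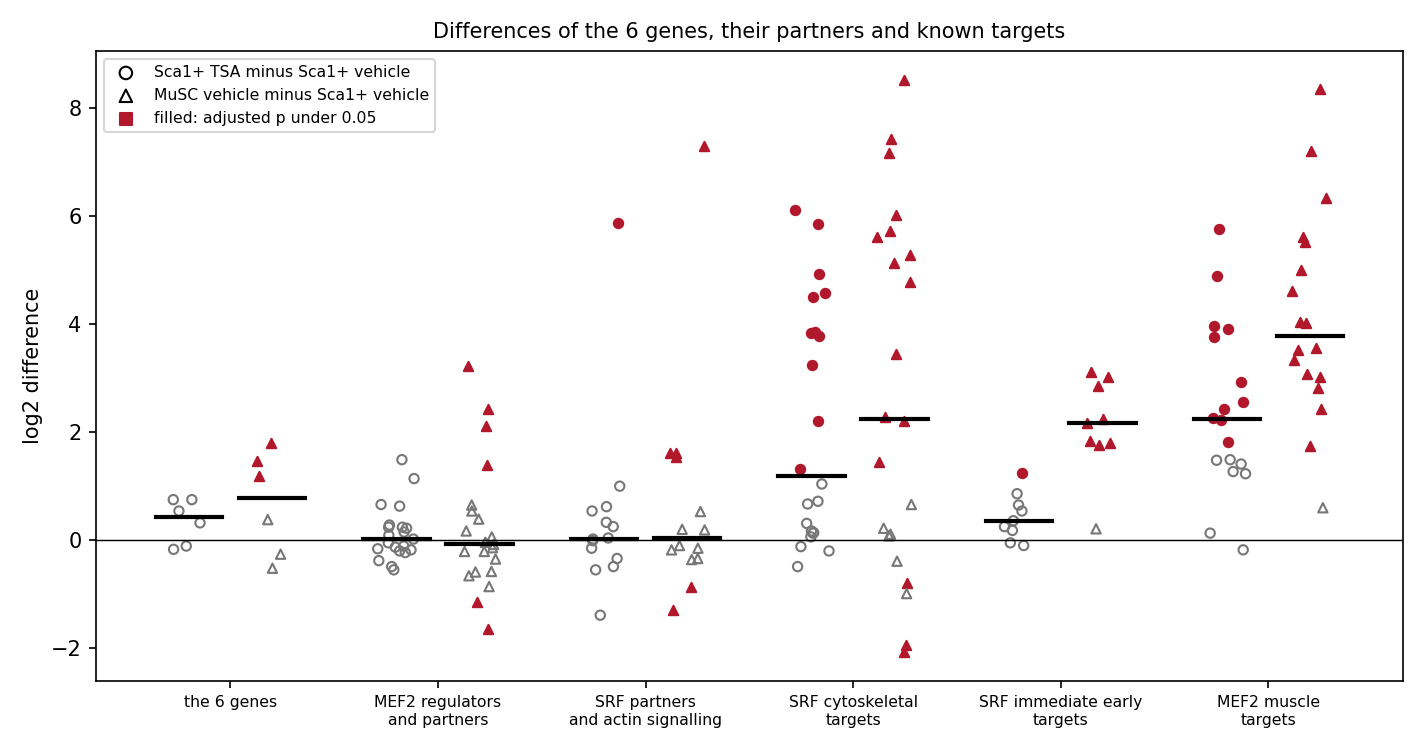
Log2 differences (vertical axis) of the 6 genes and of 5 lists of their regulators, partners and known targets, for TSA Sca1+ against vehicle Sca1+ cells (circles, left in each column) and MuSC against vehicle Sca1+ cells (triangles, right). Each symbol is a gene, filled red where the adjusted p was under 0.05, and black lines are list medians. The medians of the SRF cytoskeletal targets (1.18 and 2.25) and MEF2 muscle targets (2.24 and 3.79) lie above those of the 6 genes (0.43 and 0.78).

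Several genes of the target lists also mark cell types, and their markers moved with TSA. Summed over 8 markers of smooth muscle and pericytes, the signal was 599 and 553 times the 75th percentile in TSA Sca1+ cells, 1557 in MuSC, and 59.1 and 65.2 in vehicle Sca1+ cells. Of the 8, 6 were called higher with TSA, against 2.71% of all genes. Acta2, Tagln and Cnn1 belong to that marker list and to the SRF targets, and Des to that list and to the MEF2 targets. Acta2 and Tagln give most of the sums with TSA and in MuSC, at log2 levels of 7.86 to 8.18 with TSA and 9.33 and 9.52 in MuSC. Cspg4 (0.61 ± 0.21) and Pdgfrb (-0.17 ± 0.16) were not called with TSA. Pdgfrb was lower in MuSC than in vehicle Sca1+ cells by a difference of -0.91 ± 0.20 (limma, adjusted p = 0.0424). For 7 satellite cell markers the sums were 17.3 and 18.0 with TSA, 127.9 in MuSC, and 9.99 and 10.1 with vehicle, with 5 of 7 called higher with TSA. Of those sums Vcam1, which was not called (0.22 ± 0.15, adjusted p = 0.411), gave 10.9 and 11.6 with TSA, 38.3 in MuSC, and 9.63 and 9.65 with vehicle. The 6 other satellite cell markers summed to 6.44 and 6.36 with TSA, 89.5 in MuSC, and 0.357 and 0.413 with vehicle, and the 5 called, Pax7, Myod1, Cdh15, Calcr and Chrna1, are among them. For 6 muscle fibre markers, among them Acta1 and Ckm, they were 19.1 and 23.2 with TSA, 80.4 in MuSC, and 1.72 and 1.85 with vehicle, with 4 of 6 called.
Of the other lists, 3 of 4 mast cell markers were called higher with TSA (sums of 27.1 and 25.0 with TSA, 0.191 in MuSC, and 0.655 and 0.623 with vehicle) and 1 of 6 endothelial markers. Of all genes, 2.71% were called higher with TSA and 0.268% lower. Of 6 markers of fibroadipogenic progenitors, 1 was called lower with TSA, with sums of 1036 and 1099 with TSA, 142.5 in MuSC, and 1931 and 2575 with vehicle, and no macrophage or lymphocyte marker was called. The part of these cell types in the levels of Mef2c, Srf and their targets was not tested.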

How the data were processed

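RNA of 5 sorted cell samples was measured on single-colour Agilent arrays. Per the file headers, the authors extracted spot intensities with Feature Extraction 10.7.3.1, giving a background-subtracted processed intensity per spot. The deposited value table is in log2 and was used only as an alternative. The tool behind it is not given in the sources used here.

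Each value is the log2 processed intensity minus each array's 75th percentile over 59305 non-control spots. Spots that the software marked as outliers (0.196% to 0.334% of an array) were dropped, and repeat spots averaged. The slide 2 files used here give no gene names, so names came from slide 1 by probe: 26413 probes were named through a RefSeq table (GRCm38.p6), 575 by a shared design name, and the others kept the design's name, which can be old. The probe with the highest mean stood for a gene. A gene was kept if some group had it well above background on all its arrays. The linear model (limma 3.58.1, R 4.3.3) covered 5 arrays in 3 groups with moderated variances (2 residual degrees of freedom, prior 2.30). Tests were two-sided with a Benjamini-Hochberg adjusted threshold of 0.05, and a second fit used all probes. Errors beside log2 differences are the model's standard errors.

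The 6 genes, the gene lists and the marker lists were chosen with earlier results of these data known. Named list genes were up to 4 with the largest difference in each direction among those called, beside uncalled ones set against them. Not every gene that this rule allows is printed, and one is not reported here. Neighbour genes were the 3 with the smallest root mean square distance. Coordinates of probes come from the scanner files (mm9), and those of promoters from RefSeq (GRCm38.p6). For Myocd, Lmod1, Myom1 and Srpk3, at least N-fold sets the mean of the brighter group against a vehicle mean in which each array contributes the probe value or the lowest value of any probe well above background, whichever is higher. Replicate arrays correlated at 0.991 (TSA) and 0.989 (vehicle) and were counted as separate samples. Replicate 1 deviations of TSA and vehicle arrays correlated at 0.38 over probes, but 2 pairs are too few to show that numbers pair samples. Replicate number coincides with slide, so a shared slide and a pairing of samples cannot be told apart. The main fit has no term for slide. The arrays' number limits the precision.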

Additional observations from a re-analysis of the deposited data

How the results depend on the processing

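Of the alternatives, normexp background correction was run on the median spot signal, because the mean signal is absent from the slide 2 files used here. It moved the median TSA minus vehicle difference of all genes from -0.13 to -0.25 and turned the split of calls from 708 higher and 70 lower to 1252 higher and 5868 lower. Without a filter on dim probes that median was -0.24, with 280 higher and 3 lower, and with an intensity trend 1199 were higher and 475 lower. The normexp offset of 50 is the same on every array, but the signal used for scaling is not. For the processed signal it was 326 and 452 on the TSA arrays, and 235 and 165 on the vehicle arrays. After scaling, a dim probe near the offset therefore reads lower on the TSA arrays by the setting itself. How many of the 5868 lower calls arise this way was not counted, so they are not read as lower RNA with TSA. Between TSA and vehicle, the sign of Mef2a turned with normexp (0.01), with the median of its probes (0.11) and without vehicle replicate 2 (0.01), and leaving out 1 array at a time gave -0.36 to 0.01. The sign of Mkl1 turned with normexp (0.10) and without TSA replicate 1 (0.03), with -0.25 to 0.03 over the arrays left out, and that of Mkl2 with the median of its probes (-0.09). None of these passed, and the cause was not tested.

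Of the 6 genes, 1 (Srf) passed with TSA under normexp and under the intensity trend. Against MuSC, 0 were lower in TSA Sca1+ cells with no filter, with the replicate block, with only 2 groups (which left fewer arrays) and over all probes, and 2 with the trend. MEF2 regulators called higher with TSA numbered 1 with normexp, quantile normalization, the deposited table or the block, and 2 with the filter on all arrays or the trend. SRF partners called with TSA numbered 0 higher under the all-array filter (which drops Myocd) and 1 lower under normexp. Immediate early targets called with TSA numbered 4 with normexp, 0 with no filter and 2 with the trend, and MEF2 targets 6 with no filter. In MuSC, MEF2 regulators called lower numbered 1 with no filter or 2 groups and 4 with the trend. SRF partners called higher numbered 2 with no filter, and those called lower 1 with quantile normalization, the deposited table, no filter, the block, 2 groups or all probes.

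Leaving out 1 Sca1+ array gave, between TSA and vehicle, 0 to 9 cytoskeletal targets, 0 to 6 MEF2 targets, 0 to 1 SRF partners, and 0 immediate early targets, MEF2 regulators and members of the 6 called higher. In MuSC it gave 1 to 3 of the 6 genes, 12 to 13 cytoskeletal targets higher and 2 lower, 8 immediate early targets, 16 to 17 MEF2 targets, 3 to 4 MEF2 regulators higher and 0 to 1 lower, and 2 to 3 SRF partners higher and 0 lower. Between TSA and MuSC it gave 0 of the 6 genes. A fit that leaves an arm with 1 array assumes that it varies like the others. The replicate block, which is also a block by slide, called 932 genes higher and 166 lower with TSA. Among the 6 genes it changed only the call of Mef2c between TSA and MuSC. It also called 2 cytoskeletal targets lower in MuSC, without Fhl1.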

Other observations

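A pair of further probes lies outside the rule because the array design names them by a transcript identifier, although its descriptions give MEF2A and MEF2D. The probe described as MEF2A (A_52_P175157, chr7:74376573-74376632 in mm9) read 0.40 and 0.77 in TSA Sca1+ cells, 1.25 in MuSC, and -0.19 and 0.09 in vehicle Sca1+ cells. Its groups did not overlap, and it was higher in MuSC than in vehicle Sca1+ cells by 1.31 ± 0.27 (limma over all probes, adjusted p = 0.0392). The probe described as MEF2D (A_51_P394676, chr3:87975777-87975836) read 3.31 and 3.33 with TSA, 4.03 in MuSC, and 3.20 and 3.28 with vehicle. Its MuSC minus vehicle difference was 0.79 ± 0.19 (adjusted p = 0.0561), and its TSA and vehicle arrays lay within 0.13 of each other. The MEF2A-described probe thus had the order of the second Mef2a probe, with MuSC highest and vehicle lowest, and not that of the TG-rich probe.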
